A study of Mus musculus with 2 samples.

Results

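Wnt signalling in the gut wall depends on secreted proteins made largely by the connective tissue beneath the epithelium, and 10 genes for such proteins are described here cell by cell in the mouse colon. They were 3 Wnt ligands (Wnt2b, Wnt4 and Wnt5a), 2 R-spondins (Rspo1 and Rspo3) and 5 secreted inhibitors or relatives of inhibitors (Sfrp1, Sfrp2, Sfrp4, Dkk2 and Dkk3). They were picked as stromal Wnt genes with earlier results of these data known, and their rows were taken by symbol. All 10 were found among the 31053 genes of the deposited count matrices. The cells came from a pair of libraries of colon from wild-type C57BL/6 mice. In one, the mice had received Δ9-tetrahydrocannabinol (THC, the main psychoactive compound of cannabis) at 10 mg/kg, and in the other the vehicle alone. No transgene, deletion or second agent is given for either group. How many mice were pooled, of which sex and how often they were dosed is not stated in the labels. EDTA treatment preceded digestion with collagenase D, DNAse and Dispase, a Percoll gradient enriched the lamina propria cells, and 10x Genomics 5' chemistry was used.

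Wnt ligands bind Frizzled receptors and the co-receptors Lrp5 and Lrp6 on nearby cells. In the canonical branch this stabilises β-catenin (Ctnnb1), which switches on target genes with Tcf and Lef factors; Wnt5a is best known for signalling without β-catenin through Ror2 and Ryk. R-spondins bind Lgr receptors and keep the ubiquitin ligases Rnf43 and Znrf3 from removing Frizzled receptors, and so strengthen Wnt signals, which intestinal stem cells need. Secreted Frizzled-related proteins (Sfrp) bind Wnts outside the cell, and Dickkopf proteins bind Lrp co-receptors, except Dkk3, a divergent family member whose link to Wnt signalling is less settled. In the gut, telocytes are thin fibroblasts that lie directly under the epithelium, adventitial fibroblasts surround vessels in the submucosa, and mesothelial cells line the outer surface.

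RefSeq promoter sequence was at hand for 5 of the 10 genes (Wnt2b, Wnt4, Rspo1, Sfrp2 and Dkk2). Windows of 250 bases before the annotated start are shown for 3 of them, a ligand, an R-spondin and an inhibitor whose transcripts were highest in different stromal groups, because they span most of the range of CpG content among these genes. Each runs 5' to 3' on the gene's strand (build GRCm38.p6); capitals mark CG dinucleotides and, in Dkk2, also the motif TATAAA. Wnt4 lies at chr4:137277385-137277634 (plus strand), Rspo1 at chr4:124986180-124986429 (plus strand) and Dkk2 at chr3:132085042-132085291 (plus strand).
Wnt4: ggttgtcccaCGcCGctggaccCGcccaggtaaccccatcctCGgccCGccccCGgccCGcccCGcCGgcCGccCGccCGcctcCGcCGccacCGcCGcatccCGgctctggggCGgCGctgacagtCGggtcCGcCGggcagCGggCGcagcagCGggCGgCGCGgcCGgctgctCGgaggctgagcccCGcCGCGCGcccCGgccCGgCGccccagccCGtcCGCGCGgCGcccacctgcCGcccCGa
Rspo1: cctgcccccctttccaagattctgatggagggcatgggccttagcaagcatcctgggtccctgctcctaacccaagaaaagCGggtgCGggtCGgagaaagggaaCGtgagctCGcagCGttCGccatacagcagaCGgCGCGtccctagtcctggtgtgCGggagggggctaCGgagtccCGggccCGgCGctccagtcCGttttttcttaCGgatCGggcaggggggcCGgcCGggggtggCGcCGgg
Dkk2: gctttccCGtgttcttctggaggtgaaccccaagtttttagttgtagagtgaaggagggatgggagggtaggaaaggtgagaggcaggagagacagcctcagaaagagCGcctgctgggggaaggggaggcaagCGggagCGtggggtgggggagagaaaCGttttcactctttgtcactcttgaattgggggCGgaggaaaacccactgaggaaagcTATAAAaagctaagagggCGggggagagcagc
The Wnt4 window held 44 CG dinucleotides, against 36 for Wnt2b, 22 for Rspo1, 16 for Sfrp2 and 7 for Dkk2, and the median over all 32851 such windows of the table was 6. TATAAA, searched on both strands, was found in Dkk2 alone among the 5 windows, 32 bases before the start, and in 12.4% of all windows. CTTTGA, a form of the core letters that Tcf and Lef factors are known to bind, was found on neither strand in any of the 5 windows and in 13.8% of all windows. Other forms of that core were not searched. These matches describe letters in a window and say nothing of whether a factor binds there.

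After the limits on UMIs (unique molecular identifiers, each tagging 1 captured transcript), genes and mitochondrial transcripts, 396 THC and 630 vehicle cells remained, with medians of 8598.5 and 7122 UMIs per cell. No barcode was shared between the kept cells of the libraries. The THC matrix listed every possible barcode and the vehicle matrix 973 barcodes already called as cells, so the same minimum of 1000 UMIs was set in both. Class names carry the ending "-like" because they were rebuilt from marker genes, and the 10 genes were not among the genes used to cluster. Stromal cells numbered 435, of which 256 were fibroblast-like (98 THC, 158 vehicle) and 95 smooth muscle-like (42 THC, 53 vehicle). The fibroblast-like cells fell into 6 sub-clusters. These were lamina propria fibroblast-like cells led by Col6a5 (105 cells) or by Stmn2 (24), telocyte-like (33), adventitial fibroblast-like (65) and mesothelial-like cells (7), and 22 cells led by Cox8b that stayed unnamed. The 7 mesothelial-like cells together held all 6 mesothelial markers and all 8 fibroblast markers. Smooth muscle-like cells formed a cluster led by Actc1 (36 cells, with 5 of the 8 smooth muscle markers) and one led by the creatine kinase gene Ckm (59 cells, 8 of 8). Each group was 1 library, so no test was made, and intervals below are exact 95% intervals that cover counting error only.

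The 10 transcripts were almost confined to stromal cells in these libraries. Stromal cells held 2818 UMIs of the 10 genes, 98.3% of all such UMIs in kept cells. At least 1 of the 10 was seen in 367 of 435 stromal cells (84.4%), in 24 of 591 other cells (4.06%) and in 10 of 187 epithelial-like and goblet-like cells (5.35%). The epithelial-like and goblet-like cells were deeper (more UMIs each), with a median of 13656 UMIs against 7702 in stromal cells. Whether the few UMIs in them came from free RNA was not tested. In all 10 genes the class with the highest level, in counts per 1000000 UMIs of the class (CPM), was stromal, against 45.3% of the 12401 genes with at least 30 UMIs. Since the 10 were picked as stromal genes, that count describes the choice as well as the tissue.

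Outside the stroma the remaining UMIs were few. In the 63 epithelial-like and 124 goblet-like cells, 7 of the 10 genes had 0 UMIs, which allows up to 4.76% and 2.42% of cells with a detectable UMI. That limits detection, not expression, since a cell can hold a transcript that was not captured. The exceptions were Wnt4 (8 UMIs, 7 of them in 1 vehicle cell), Wnt5a (6 UMIs in 6 epithelial-like and 2 in 2 goblet-like cells) and Dkk3 (3 UMIs in 1 cell). A single macrophage-like vehicle cell held all 9 Sfrp1 UMIs of its class. In THC barcodes with at most 100 UMIs, which hold mostly free RNA, Dkk3 had 9, Wnt5a 5, Sfrp1 4, Sfrp2 3 and Sfrp4 2 of 817720 UMIs, and the other 5 genes had 0. Smooth muscle actin Acta2 had 1351 and the epithelial adhesion gene Epcam 891 in the same barcodes, far above any of the 10 genes. The vehicle matrix, called before deposit, holds no such barcodes.

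**Figure D1:**
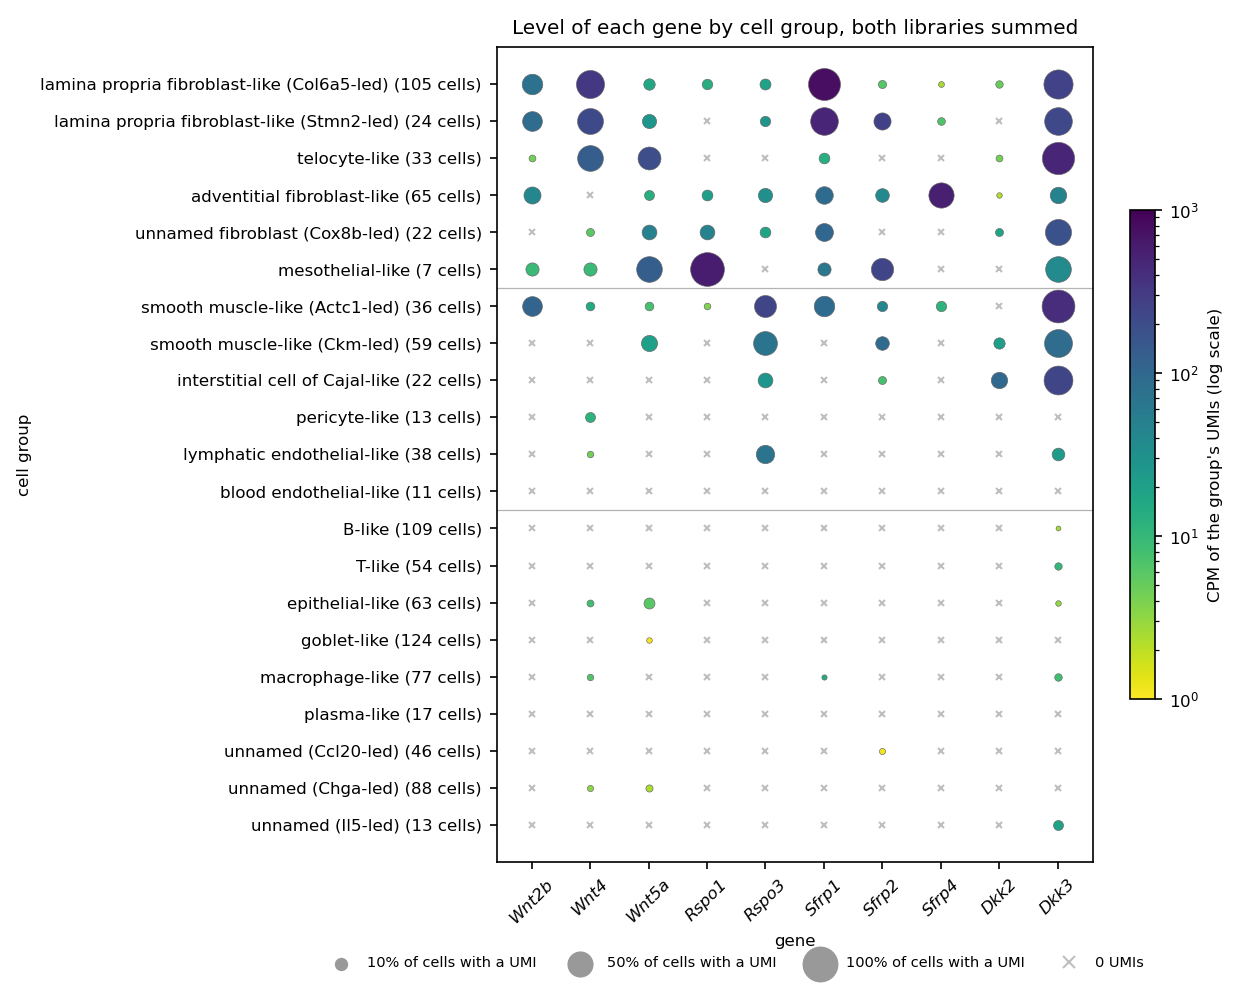
Level of the 10 genes (columns) in 21 cell groups (rows, cells per group in brackets) with both libraries summed. Colour is CPM on a log scale, dot area is the share of cells with a UMI, and a grey cross is 0 UMIs. Filled dots outside the 6 fibroblast-like, 2 smooth muscle-like and Cajal-like rows are mostly small, and the lymphatic endothelial-like row has Rspo3 at 71.6 CPM. The genes are darkest in 7 different rows, such as Rspo1 in the mesothelial-like row at 578 CPM and Sfrp4 in the adventitial fibroblast-like row at 551 CPM.

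The 3 Wnt ligands had different stromal sources. Wnt2b, a canonical ligand, reached 111 CPM in the Actc1-led smooth muscle-like cells (interval 74.3 to 159), 88.9 in the Stmn2-led and 73.2 in the Col6a5-led lamina propria fibroblast-like cells, and these 3 levels overlapped in their intervals. Its next level was 41.1 CPM in the adventitial fibroblast-like cells, and the Ckm-led smooth muscle-like cells held 0 Wnt2b UMIs, which allows up to 3.21 CPM. Wnt4, a ligand known from kidney and reproductive tract development, was highest in the Col6a5-led cells at 327 CPM (289 to 369), where 72 of 105 cells held it. The Stmn2-led cells followed at 219 CPM (150 to 309) and the telocyte-like cells at 132 CPM (89.0 to 188). The intervals of neighbours in that order overlapped, while the first and the third did not. No Wnt4 UMI was found in the 65 adventitial fibroblast-like cells, which allows up to 6.48 CPM.

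Wnt5a was highest in the telocyte-like cells at 198 CPM (144 to 265), where 15 of 33 cells held it. The mesothelial-like cells were next at 131 CPM (71.4 to 219), with overlapping intervals, and the Cox8b-led cells had 47.1 CPM (20.3 to 92.8). In the lamina propria Col6a5-led cells, the largest fibroblast group, Wnt5a stood at 16.1 CPM (8.59 to 27.6). The Ckm-led smooth muscle-like cells had 20.3 CPM. Telocyte-like cells were thus a source of both Wnt4 and Wnt5a.

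The R-spondins also came from different cells. Rspo1 reached 578 CPM in the 7 mesothelial-like cells (443 to 741), every one of which held it, and 62 of its 92 UMIs came from them. The THC cells among them had 23, 11, 7, 5 and 4 Rspo1 UMIs and the vehicle cells 10 and 2, so no single cell made the level. The next groups had 47.1 CPM (Cox8b-led, 20.3 to 92.8), 21.6 CPM (adventitial, 10.4 to 39.8) and 13.6 CPM (Col6a5-led, 6.81 to 24.4). Rspo3, in contrast, was highest in the Actc1-led smooth muscle-like cells at 245 CPM (188 to 312). Lymphatic endothelial-like cells had 71.6 CPM (40.9 to 116) and the Ckm-led smooth muscle-like cells 70.7 CPM (54.7 to 89.9), levels whose intervals overlapped. Fibroblast-like cells held only 19.5% of the Rspo3 UMIs, with 32.4 CPM in the adventitial group as their highest level, and the telocyte-like and mesothelial-like cells held 0, which allows up to 13.2 and 28.0 CPM.

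Among the inhibitors, Sfrp1 had the most UMIs, 806, and 95.9% of them lay in fibroblast-like cells. Its level was 783 CPM in the Col6a5-led cells (723 to 846), where 94 of 105 cells held it, and 492 CPM in the Stmn2-led cells (385 to 620), and those intervals did not overlap. Cox8b-led, Actc1-led smooth muscle-like and adventitial cells followed at 106, 91.8 and 90.8 CPM, which did not differ beyond their intervals. Sfrp1 was scarce in telocyte-like cells, with 3 UMIs in 33 cells.

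Sfrp4 was the most sharply placed of the 10. Of its 261 UMIs, 255 lay in the adventitial fibroblast-like cells, at 551 CPM (486 to 623), and 36 of those 65 cells held it. The next level was 11.5 CPM in the Actc1-led smooth muscle-like cells, from 3 UMIs (2.37 to 33.5), and the telocyte-like cells held 0. Sfrp2 was patchy. It reached 273 CPM in the Stmn2-led cells (195 to 372) and 242 CPM in the mesothelial-like cells (158 to 355), but from 6 of 24 and 3 of 7 cells, and one Ckm-led smooth muscle-like THC cell alone held 42 of its 188 UMIs. The intervals of Sfrp2 do not include this unevenness between cells.

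The Dickkopf genes differed in breadth. Dkk2 was highest in the interstitial cell of Cajal-like cells, the pacemaker cells of the gut muscle, at 99.7 CPM (65.1 to 146), but only 5 of 22 cells held it and 1 cell had 15 of the 26 UMIs. Next came the Ckm-led smooth muscle-like cells at 21.4 CPM (13.1 to 33.1). The Cajal-like cells also held all 8 smooth muscle markers, at 20708 CPM summed. The Actc1-led and Ckm-led cells had 45389 and 112678 CPM of those markers. Dkk3 was the broadest of the 10, seen in 259 of 1026 cells. Its levels ran from 488 CPM in telocyte-like cells (401 to 588) and 413 in Actc1-led smooth muscle-like cells (339 to 499) to 259 in Col6a5-led, 241 in Cajal-like, 226 in Stmn2-led and 182 in Cox8b-led cells, and then to 89.9 in Ckm-led and 45.4 in adventitial cells. The first pair did not differ beyond their intervals, nor did the next 4 groups.

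Within the fibroblast-like cells, 2 of the 9 genes with at least 30 UMIs there (Rspo1 and Sfrp4) were at least 2-fold higher in their top sub-cluster than in the next, against 11% of 6845 genes. With a minimum of 2500 UMIs per cell the count was 5 of 7, and with under 5% mitochondrial UMIs it was 5 of 6. The sub-clusters come from the same cells, so these levels are a description. Shares of cells with a UMI were lower at a fixed depth. Thinned to 1000 UMIs per cell, which every kept cell had, the share with Sfrp1 in the Col6a5-led cells was 43.8% in place of 89.5%, with Wnt4 there 22.9% in place of 68.6%, with Sfrp4 in adventitial cells 30.8% in place of 55.4% and with Dkk3 in telocyte-like cells 33.3% in place of 90.9%.

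Single cells often held several of the genes. The median Col6a5-led or Stmn2-led cell had UMIs of 3 of the 10 genes and the median telocyte-like or adventitial cell of 2. Among fibroblast-like cells, 76 of the 107 with Wnt4 also held Sfrp1 (71.0%, against 53.5% of all fibroblast-like cells), and 34 of the 43 with Wnt5a held Dkk3 (79.1% against 60.9%). Sfrp4 and Wnt4 met in 2 cells, of 39 and 107 that held them, and Wnt5a and Rspo3 in none of 43 and 25. Among smooth muscle-like cells, 11 of the 12 with Wnt2b held Rspo3, against 44 of all 95. Those 12 were all Actc1-led, since the Ckm-led cells held 0 Wnt2b UMIs. Rspo3 itself was seen in 5 of 16 THC and 10 of 20 vehicle Actc1-led cells, and also in 12 of 26 THC and 17 of 33 vehicle Ckm-led cells. Deeper cells show more genes, and depth was not matched in these pairs.

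Across 32 units of group and library with at least 10 cells each, the genes whose level on the log2(CPM + 10) scale followed each of the 10 most closely were taken from 9359 genes with at least 100 UMIs. Sfrp4 was followed by Ptx3 (r = 0.96), Has1 and Pi16, a pentraxin, a hyaluronan synthase and a marker of adventitial fibroblasts. Sfrp1 was followed by Vstm4 (r = 0.95), Mfap4 and the Wnt receptor Fzd1. Wnt4 was followed by Hpse (r = 0.87), Hcar2 and Adamdec1, the last a lamina propria fibroblast marker, and Wnt5a by Col4a5 (r = 0.82), Pdgfra and Col12a1. Dkk3 was followed by Nkx2-3 (r = 0.94), Adgrl1 and H2afy2, Wnt2b by Rcan2 (r = 0.89), Nnmt and Ncam1, Rspo3 by Tspan18 (r = 0.86), Tbxa2r and Micall1, and Sfrp2 by Epdr1 (r = 0.75), Fam129a and Ap4s1. Rspo1 and Dkk2 had too few UMIs for this ranking. These units share libraries and cell classes, so the coefficients only describe a common pattern over classes.

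The comparison of THC with vehicle asked whether stromal Wnt genes stood at other levels after the cannabinoid. In fibroblast-like cells, 5 of the 9 genes with at least 30 UMIs differed 2-fold or more between the libraries, 2 of them higher and 3 lower in the THC library. Over all genes with that minimum the background was 3.36% in either direction, 1.8% higher and 1.56% lower, and the median log2 ratio was 0.03, against -0.18 for the 9 genes. The count moved with the cells compared. Given the same mix of sub-clusters in both libraries it was 2 of 9, with a minimum of 2500 UMIs 2 of 7, with under 5% mitochondrial UMIs 2 of 6, and with fibroblasts taken by markers without clustering 0 of 5. Genes that fell below 30 UMIs left these counts. With the marker gating these included Wnt5a (log2 ratio 1.68, 18 UMIs), Rspo1 (1.52, 12 UMIs), Rspo3 (-3.43, 23 UMIs) and Sfrp2 (-0.97, 20 UMIs). The 0 of 5 thus does not cover them, while Sfrp4 was counted there at -0.82.

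Rspo1 stood at 85.7 CPM in the THC fibroblast-like cells (65 UMIs in 14 of 98 cells) and at 22.4 CPM in the vehicle ones (26 UMIs in 12 of 158 cells). The log2 ratio was 1.94 (1.26 to 2.65). Mesothelial-like cells, its main source, made up 5.10% of the fibroblast-like cells in the THC library and 1.27% in the vehicle library (5 and 2 cells). Without them the ratio was 0.82 (29 UMIs in all), and with the same mix of sub-clusters 0.87. With the libraries clustered separately it was -0.55 (34 UMIs in place of 91). In that setting 68 THC cells in place of 98 were called fibroblast-like, while the vehicle cells still numbered 158. The -0.55 thus does not measure a level in the same cells. Summed mesothelial markers in the fibroblast-like cells were 476 CPM in the THC and 163 CPM in the vehicle library, with all 6 detected in both.

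Wnt5a stood at 69.9 CPM in THC and 31.9 CPM in vehicle fibroblast-like cells (53 and 37 UMIs), a log2 ratio of 1.13 (0.50 to 1.78). The difference was also present within its main source. In telocyte-like cells the THC library had 290 CPM (32 UMIs, 10 of 14 cells). The vehicle library had 111 CPM there (13 UMIs, 5 of 19 cells), a log2 ratio of 1.39 (0.42 to 2.44). These THC cells were deeper, with a median of 8570 UMIs against 5755 in the vehicle ones. The shares of cells with a UMI were not matched for depth. With the same mix of sub-clusters the fibroblast-wide ratio was 0.63, and among cells with under 5% mitochondrial UMIs, where 42 THC and 77 vehicle fibroblast-like cells remained, it was -0.69. That last value rests on 8 Wnt5a UMIs, too few to give a direction.

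Of the lower genes, Sfrp4 stood at 61.9 CPM in THC and 182 CPM in vehicle fibroblast-like cells (47 and 211 UMIs), a log2 ratio of -1.55 (-2.04 to -1.09). Adventitial fibroblast-like cells, which hold nearly all of it, made up 21.4% of the fibroblast-like cells in the THC library and 27.8% in the vehicle library. They held 133296 of the 758692 fibroblast-like UMIs in the THC library and 329403 of 1161147 in the vehicle library. Within them the levels were 338 CPM in the THC library (9 of 21 cells) and 638 CPM in the vehicle library (27 of 44 cells). The log2 ratio was -0.92 (-1.42 to -0.45), short of 2-fold. The THC adventitial cells were shallower, with a median of 5746 UMIs against 7725.5, and the cell shares were not matched for depth. With the libraries clustered separately, 68 THC cells in place of 98 were called fibroblast-like, while the vehicle cells still numbered 158. The Sfrp4 UMIs then numbered 212 in place of 258, and the fibroblast-wide ratio was -6.57. That value goes with the THC cells lost from the class and does not measure a level in the same cells. Sfrp4 was lower in the THC library under each of the 15 alternatives that gave a ratio, and apart from that setting they ran from -1.77 to -0.82. Some of these alternatives kept 98 THC and 158 vehicle cells and only repeated the -1.55. All of them used the same pair of libraries, so their number does not measure support.

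Rspo3 stood at 9.23 CPM in THC fibroblast-like cells (7 UMIs in 7 cells) and 25.8 CPM in vehicle ones (30 UMIs in 18 cells), a log2 ratio of -1.49 (-2.92 to -0.27). Sfrp2 stood at 26.4 CPM in THC and 59.4 CPM in vehicle fibroblast-like cells (20 and 69 UMIs), a log2 ratio of -1.17 (-1.97 to -0.44). A single mesothelial-like THC cell held 65% of the THC Sfrp2 UMIs, and without the mesothelial-like cells the ratio was -2.28. Both genes were lower in the THC library under the same 15 alternatives, some of which left few UMIs (as few as 7 for Rspo3 and 12 for Sfrp2, after thinning). Others among the 15 kept the same number of cells and only repeated the ratios above.

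The other 4 genes with enough UMIs differed little between the libraries. Wnt4 stood at 156 CPM in THC and 181 CPM in vehicle fibroblast-like cells (log2 ratio -0.22, -0.56 to 0.11). Sfrp1 stood at 401 and 404 CPM (-0.01, -0.22 to 0.20), which bounds any difference of the summed UMIs to well under 2-fold by counting error. Wnt2b stood at 44.8 and 50.8 CPM (-0.18, -0.83 to 0.45) and Dkk3 at 220 and 208 CPM (0.08, -0.21 to 0.37). Dkk2 had 4 and 5 UMIs, too few to compare.

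**Figure D2:**
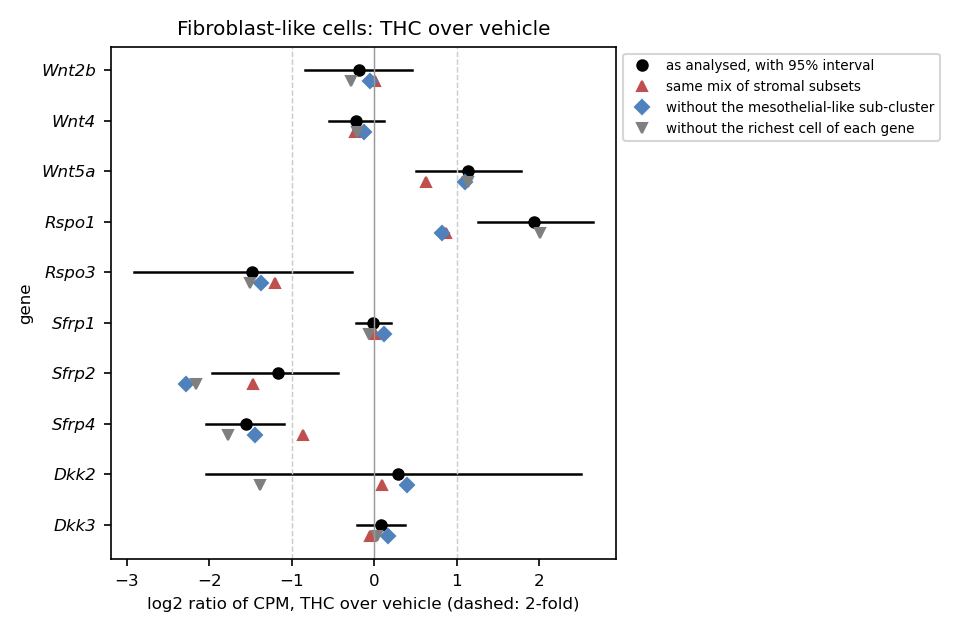
Log2 ratio of CPM, THC over vehicle, in fibroblast-like cells for the 10 genes. Black points carry exact 95% intervals for counting error, coloured markers show the ratio with the same mix of sub-clusters, without the mesothelial-like cells and with each gene's richest cell left out, and dashed lines mark 2-fold. Rspo1 moves from 1.94 to 0.82 without the mesothelial-like cells, and Wnt4, Sfrp1 and Dkk3 stay near 0.

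Within the lamina propria Col6a5-led cells, where Wnt4 and Sfrp1 were highest, the libraries were close. Wnt4 stood at 293 CPM in the THC and 351 CPM in the vehicle library (log2 ratio -0.26, -0.64 to 0.11). Sfrp1 stood at 855 and 733 CPM there (0.22, -0.01 to 0.45). In the telocyte-like cells, Dkk3 stood at 590 and 392 CPM (0.59, 0.02 to 1.17) and Wnt4 at 109 and 154 CPM (-0.50, -1.68 to 0.64).

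**Figure D3:**
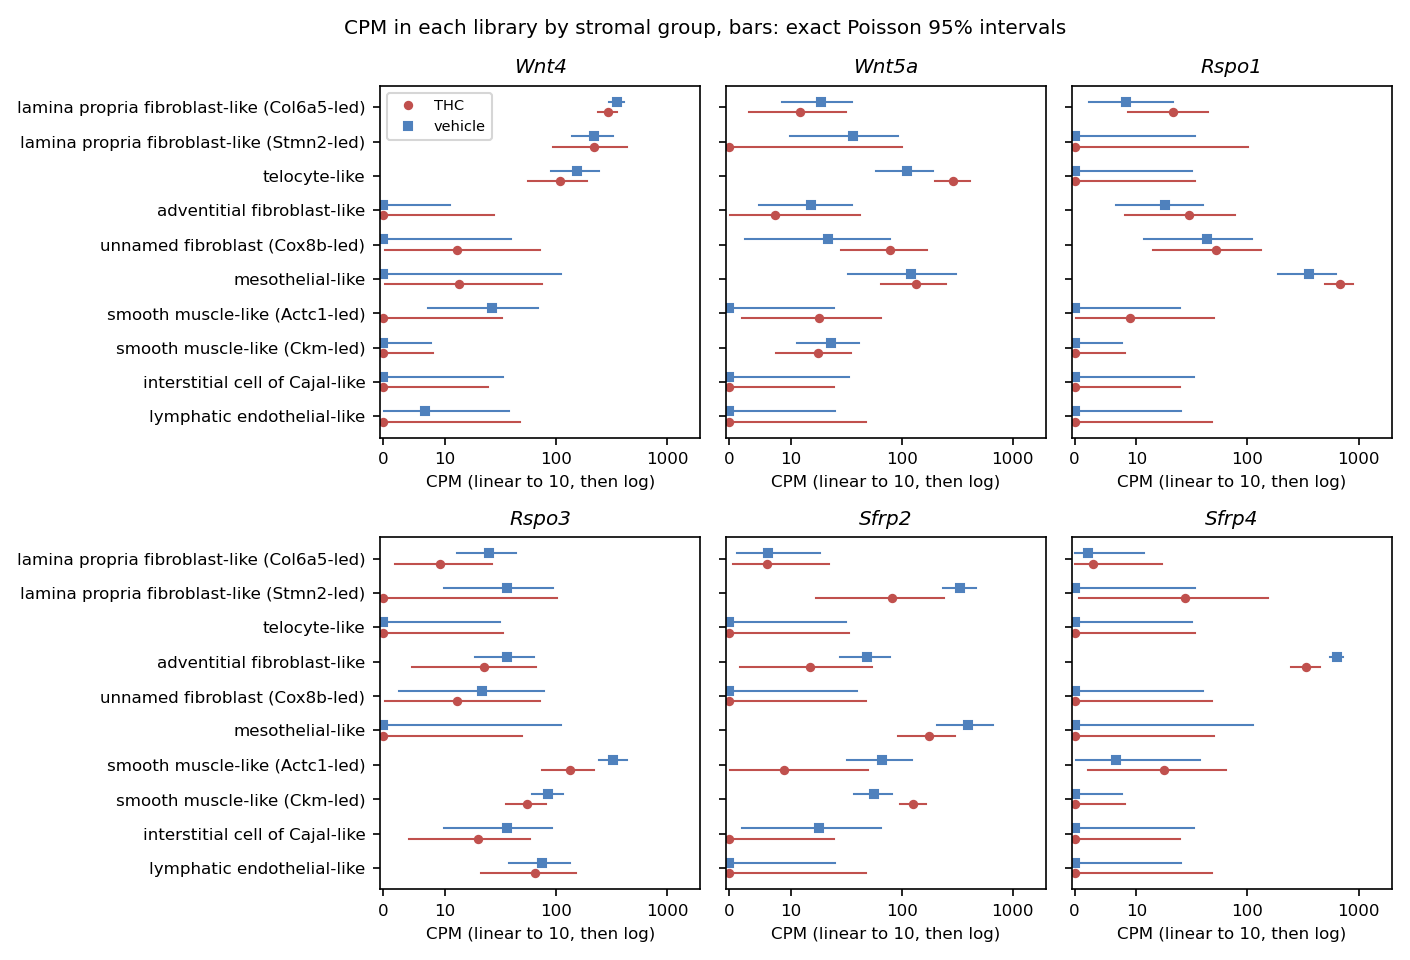
CPM of 6 of the 10 genes in each library (circles THC, squares vehicle) by stromal group, on an axis linear to 10 and logarithmic above, with exact Poisson 95% intervals. The intervals of the libraries stand apart for Sfrp4 in adventitial fibroblast-like cells, Wnt5a in telocyte-like cells, Rspo3 in Actc1-led and Sfrp2 in Ckm-led smooth muscle-like cells. For Sfrp2 there, 1 cell held 72.4% of the THC UMIs, and 3 of 26 THC and 6 of 33 vehicle cells held the gene.

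In smooth muscle-like cells, 1 of the 3 genes with at least 30 UMIs passed 2-fold, lower in the THC library, against 3.32% of 4813 genes in either direction (0.852% higher and 2.47% lower). Rspo3 stood at 70.6 CPM in THC (40 UMIs, 17 of 42 cells) and 143 CPM in vehicle cells (90 UMIs, 27 of 53 cells), a log2 ratio of -1.02 (-1.60 to -0.47). In the Actc1-led cells the ratio was -1.29 (-2.23 to -0.43; 134 and 327 CPM), and in the Ckm-led cells -0.64 (-1.42 to 0.11; 55.0 and 85.6 CPM). The Rspo3 ratio was thus negative in both smooth muscle-like clusters and in fibroblast-like cells, though the Ckm-led interval included 0. Sfrp2 stood at 104 and 58.8 CPM (log2 ratio 0.82), with 71.2% of the THC UMIs in 1 cell, and Dkk3 at 178 and 145 CPM (0.30, -0.12 to 0.73).

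**Figure D4:**
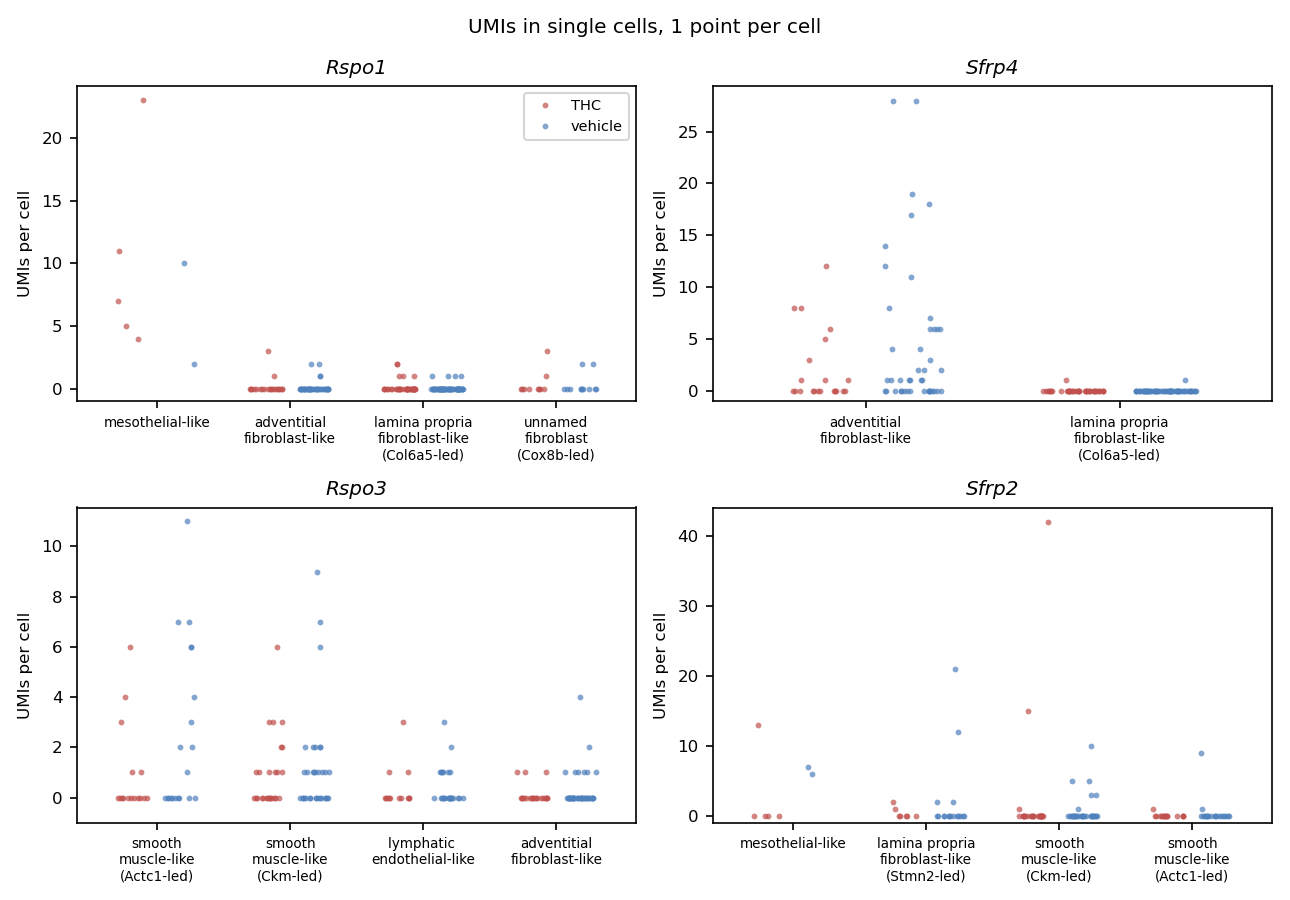
UMIs of Rspo1, Sfrp4, Rspo3 and Sfrp2 in single cells of their main stromal groups, 1 point per cell with THC left and vehicle right in each group. All 7 mesothelial-like cells hold Rspo1, adventitial fibroblast-like cells range from 0 to 28 Sfrp4 UMIs, and 1 THC cell holds 42 Sfrp2 UMIs.

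Markers of other cell types also differed between the libraries' fibroblast-like cells. Summed CPM was 1119 in THC and 686 in vehicle cells for 8 smooth muscle markers, all 8 detected in both. It was 344 and 102 for 8 epithelial markers, of which Cdh1 and Cldn7 were at 0 in the THC cells. The epithelial markers summed to 2872 CPM in the mesothelial-like cells (5 THC, 2 vehicle), whose leading genes included Krt18 and Krt19. Every other fibroblast-like sub-cluster had 47.1 CPM or less of them. The part of all these markers in the differences above was not tested. Effects of treatment, mouse and preparation cannot be told apart with 1 library per group.

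The other genes of the pathway, 78 named in a list by role, gave a wider frame. Of 16 further Wnt ligands, 4 had at least 30 UMIs (Wnt2, Wnt5b, Wnt6 and Wnt11) and 7 had none. Wnt5b, a relative of Wnt5a, was highest in fibroblast-like cells, at 82.0 CPM in the Stmn2-led group. Wnt11 was the exception among ligands, with 57.2 CPM in macrophage-like cells (39.6 to 79.9) and 54.0 CPM in adventitial fibroblast-like cells (35.0 to 79.8). The remaining R-spondins were rare, Rspo2 with 8 UMIs and Rspo4 with none. Of 9 further inhibitors, 3 had at least 30 UMIs (Frzb, Wif1 and Apcdd1). All 3 were highest in a stromal class, against 45.3% of all genes with that minimum. Wif1, which binds Wnts directly, stood at 165 CPM in the Cajal-like cells (119 to 222), the group in which Dkk2 was also highest, and at 48.4 CPM in telocyte-like cells.

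Genes for reading the signal were spread more widely. Of 20 receptor and co-receptor genes with at least 30 UMIs, 14 were highest in a stromal class, against 45.3% of all 12401 such genes. Fzd1 and Ryk were among the 14. Some of the 14 rested on low levels in the 22 Cajal-like cells, such as Fzd8 at 15.3 CPM. Unnamed clusters were not among the classes compared, and those led by Chga and Ccl20 had 8 and 7 of the 8 epithelial markers. Another 5 were highest in an epithelial class, namely Fzd5, the R-spondin receptors Lgr4 and Lgr5, the ligase Rnf43 and Kremen2. Of 10 target genes, Axin2, Ascl2, Sox9 and Ephb2 were highest in an epithelial class and Nkd1, Ccnd1, Ephb3 and Tnfrsf19 in a stromal class. Wls, which carries Wnt proteins to the cell surface, and Porcn, which adds their lipid, were both highest in stromal classes, Wls at 226 CPM in Cajal-like cells and Porcn at 32.6 CPM in smooth muscle-like cells. The stem cell receptor Lgr5 reached 33.0 CPM in an unnamed cluster of 88 cells led by Chga with all 8 epithelial markers, and 11.2 CPM in the epithelial-like cells.

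**Figure D5:**
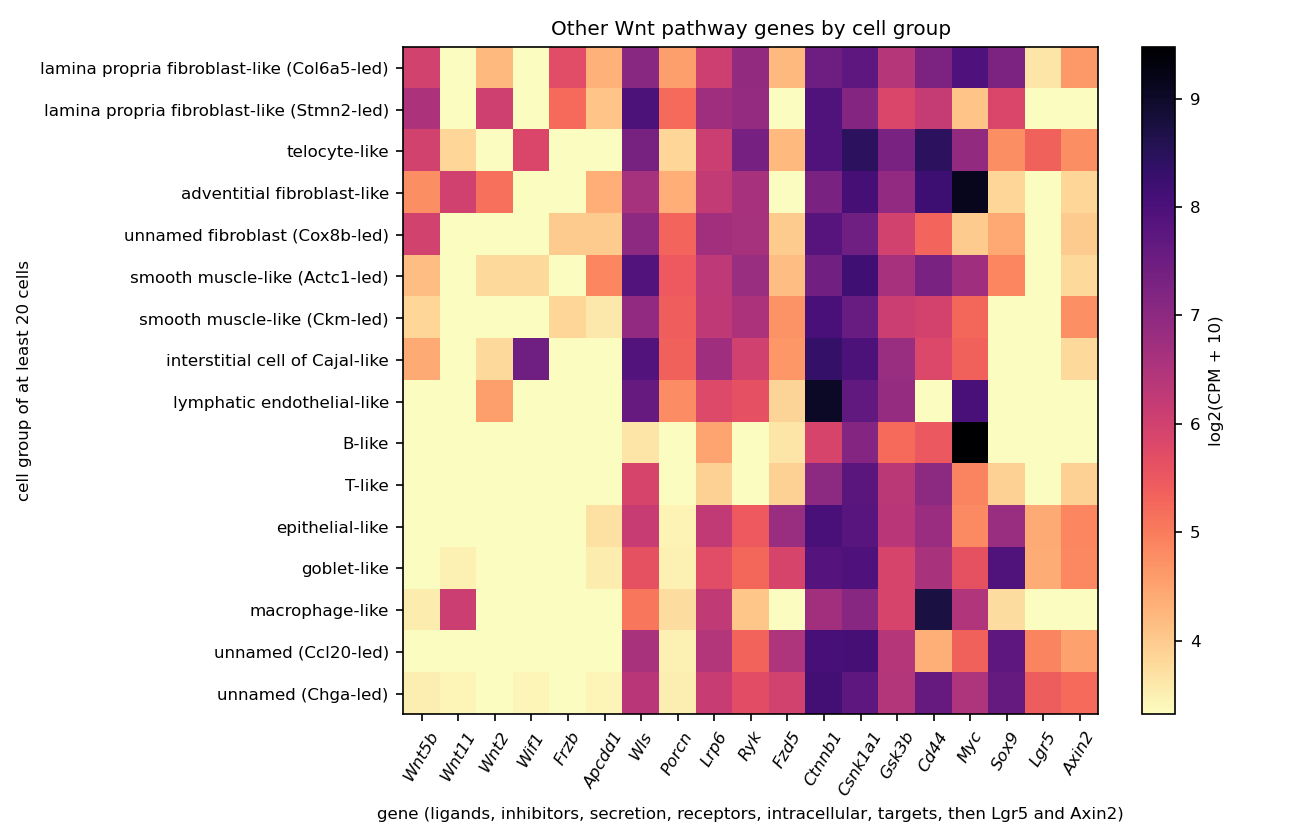
Level of 19 other Wnt pathway genes (columns, ordered by role) in 16 cell groups of at least 20 cells (rows), as log2(CPM + 10) with both libraries summed. Ligands and inhibitors are dark only in stromal rows apart from Wnt11 in macrophage-like cells, Wif1 is darkest in the Cajal-like row, and intracellular genes such as Ctnnb1 and Csnk1a1 are present in every row.

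In fibroblast-like cells 30 of the 78 had at least 30 UMIs and 0 passed 2-fold between the libraries, near the background of 3.36% of all genes, with a median log2 ratio of 0.02. Wnt5b stood at 40.9 and 47.4 CPM in the THC and vehicle libraries (-0.21), Wls at 158 and 125 CPM (0.34), the receptor Ryk at 141 and 92.1 CPM (0.61, 0.21 to 1.01) and the target Myc at 217 and 273 CPM (-0.33, -0.61 to -0.05). In smooth muscle-like cells 1 of 21 passed 2-fold, the transcription factor Tcf7l2 at 21.2 and 42.9 CPM (-1.02, -2.14 to 0.01), a share near the background of 3.32%. In epithelial-like and goblet-like cells 1 of 27 passed 2-fold, higher in the THC library. The background there was 3% of 7890 genes in either direction (1.29% higher and 1.71% lower). Lgr5, the gene past 2-fold, stood at 15.5 CPM in the THC library (19 UMIs in 10 cells). In the vehicle library it stood at 7.31 CPM (11 UMIs in 6 cells), a log2 ratio of 1.08 (-0.07 to 2.30). Its interval included 0, and in the Chga-led cluster Lgr5 had a log2 ratio of -0.69 (-1.73 to 0.29). Sox9 stood at 179 and 194 CPM (-0.12), Fzd5 at 69.1 and 68.5 CPM (0.01) and Ctnnb1 at 229 and 235 CPM (-0.04) in the epithelial-like and goblet-like cells.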

How the data were processed

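Droplet single-cell RNA sequencing gave 1 library each from THC-treated and vehicle-treated mice. Per the file headers, the authors made the deposited UMI counts with Cell Ranger 3.0.2, while bcl2fastq and Seurat are named by the submitters' processing notes without versions. No label or header gives the genome build. Other deposited files list only gene and barcode names. The THC matrix listed 737280 barcodes (106628 with a UMI) and the vehicle matrix 973, so both needed at least 1000 UMIs and 200 genes and under 10% mitochondrial UMIs, which removed 258 of 654 and 296 of 926 barcodes at that depth. Clustering in scanpy 1.11.5 used log counts per 10000 UMIs of a cell. From 2000 variable genes without the 10 members and 78 pathway genes, 30 components, 15 neighbours and Leiden resolution 1 gave 22 clusters. Fibroblast-like cells were clustered again (20 components, resolution 0.3). A class name needed at least 3 markers, in at least 10% of cells and 1 log2 unit above other cells. The scoring and the second resolution were set after seeing the data, and members and lists were chosen with earlier results of these data known. Doublets marked by scrublet (1 THC, 2 vehicle) were kept and their removal was an alternative. CPM are UMIs per 1000000, summed over a group, so deeper cells weigh more; a gene needed 30 UMIs to be counted, and 2-fold was the threshold. Named pathway genes were those past 2-fold or with the 3 highest UMI sums of their role in a class, and Rnf43, Lgr4, Kremen2, Wnt6 and the target genes by class were named after their values were seen. Poisson and binomial intervals are exact at 95% (scipy 1.17.1), and a count of 0 is given the limit of 3 counts. The interval code was checked on simulated data.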

Additional observations from a re-analysis of the deposited data

How the results depend on the processing

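There were 16 planned kinds of alternative and 3 chosen after seeing the data (a finer sub-clustering, the mesothelial-like cells left out, and the unnamed clusters of epithelial markers added). Members past 2-fold between libraries in fibroblast-like cells, 5 as analysed, numbered 2 with 2500 UMIs, 2 with under 5% mitochondrial UMIs, 2 with the same mix of sub-clusters, 1 of 4 after thinning to 1000 UMIs and 0 of 5 with marker gating, and between 4 and 5 under the other 12. Genes that fell below the minimum of UMIs in a setting left its count, among them Wnt5a, Rspo1, Rspo3 and Sfrp2 with marker gating. Members with a 2-fold top sub-cluster, 2 as analysed, numbered 5 with 2500 UMIs and 5 with under 5% mitochondrial UMIs. Members highest in a stromal class numbered 4 of 4 after thinning and 9 or 10 under the others. Wnt5a reversed to -0.69 with under 5% mitochondrial UMIs, from 8 Wnt5a UMIs, below the minimum of 30. Rspo1 reversed to -0.55 (34 UMIs) with each library clustered on its own. There 68 THC cells in place of 98 were called fibroblast-like, so that value does not measure a level in the same cells. The THC fibroblast-like cells formed 1 sub-cluster in that setting, so members by sub-cluster gave no value. Pathway genes past 2-fold in fibroblast-like cells, 0 as analysed, numbered 1 with 2500 UMIs, under 5% mitochondrial UMIs, Leiden resolution 2, marker gating, the richest cells left out or the mesothelial-like cells left out, 2 with separate clustering or a minimum of 10 UMIs per gene, and 5 with a minimum of 1 UMI. In epithelial-like and goblet-like cells, 1 as analysed, they numbered 0 with Leiden resolution 2, thinning, the richest cells left out or doublets removed, 2 with separate clustering, per-cell CPM or a minimum of 10 UMIs, and 8 with a minimum of 1 UMI. Other causes of these moves were not tested. No paired analysis was possible because each group had 1 library and no test was made. Median-of-ratios scaling moved all ratios in fibroblast-like cells by 0.03. Leiden resolution 0.5, doublet removal and clustering with the member and pathway genes allowed left every member's ratio there as analysed. Of the 10 genes, Dkk2 and Rspo1 had the fewest UMIs, 55 and 92 over 1026 cells, followed by Wnt2b and Wnt5a with 122 each.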
